A study of Mus musculus with 8 samples.

Results

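The 9 genes Bcl11b, Tbr1, Fezf2, Sox5, Cux1, Cux2, Rorb, Pou3f2 and Mef2c, which encode transcription factors that mark or specify the projection neurons of the cerebral cortex, were followed in the fetal brain after prenatal stress (PS). They were chosen by name, as the rows of the count tables whose gene identifiers carry these symbols, and make up 9 of 54752 listed genes. RNA-seq was performed on brains of C57BL/6 wild-type mouse fetuses (written C57BL/6slac in the study) at E15.5, with 1 library per brain. In the stress group the dam was exposed to chronic unpredictable mild stress (CUMS) from early gestation until the day before collection, and in the control group the dam was not exposed. Each group held 4 brains, 2 female and 2 male (control F36, F37, M30 and M31; stress F34, F35, M28 and M29). The 4 controls were littermates and so were the 4 stressed fetuses, 1 litter per group. Litter and condition therefore cannot be told apart. Every p-value below, and every SD within the stress or control group, describes the spread among littermates.

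Projection neurons of the cortex are the glutamatergic cells that send axons out of their own area. They are born in sequence from progenitors along the ventricle, deep layers before upper layers. Factors such as those studied here are switched on in the progenitors, as for Cux2 and Pou3f2, or as the cells leave the cell cycle. Several then restrain each other, so that a neuron settles on a target: the brainstem and spinal cord, the thalamus, or the other hemisphere. At E15.5 deep-layer neurons have mostly been born and upper-layer neurons are being produced. None of these factors is confined to the cortex, and a brain library mixes all regions, so fewer cells of a type and less RNA per cell cannot be told apart in these data.

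Between the groups, 2 of the 9 genes rose in the stressed brains and 1 fell. Sox5, a SoxD factor that times the production of deep-layer neurons, was 18.5% higher. Tbr1, the T-box factor of early-born and corticothalamic neurons, was 7.87% higher. Mef2c, a MADS-box factor of maturing cortical neurons that also acts in blood vessels and microglia, fell by 15.8%. The other 6 genes did not pass the test. Over all 17865 genes tested, edgeR's quasi-likelihood test with Benjamini-Hochberg adjustment called 6.49% higher and 7.27% lower, and the median log2 fold change was 0.0015 against -0.00099 over the 9 genes.

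**Figure D1:**
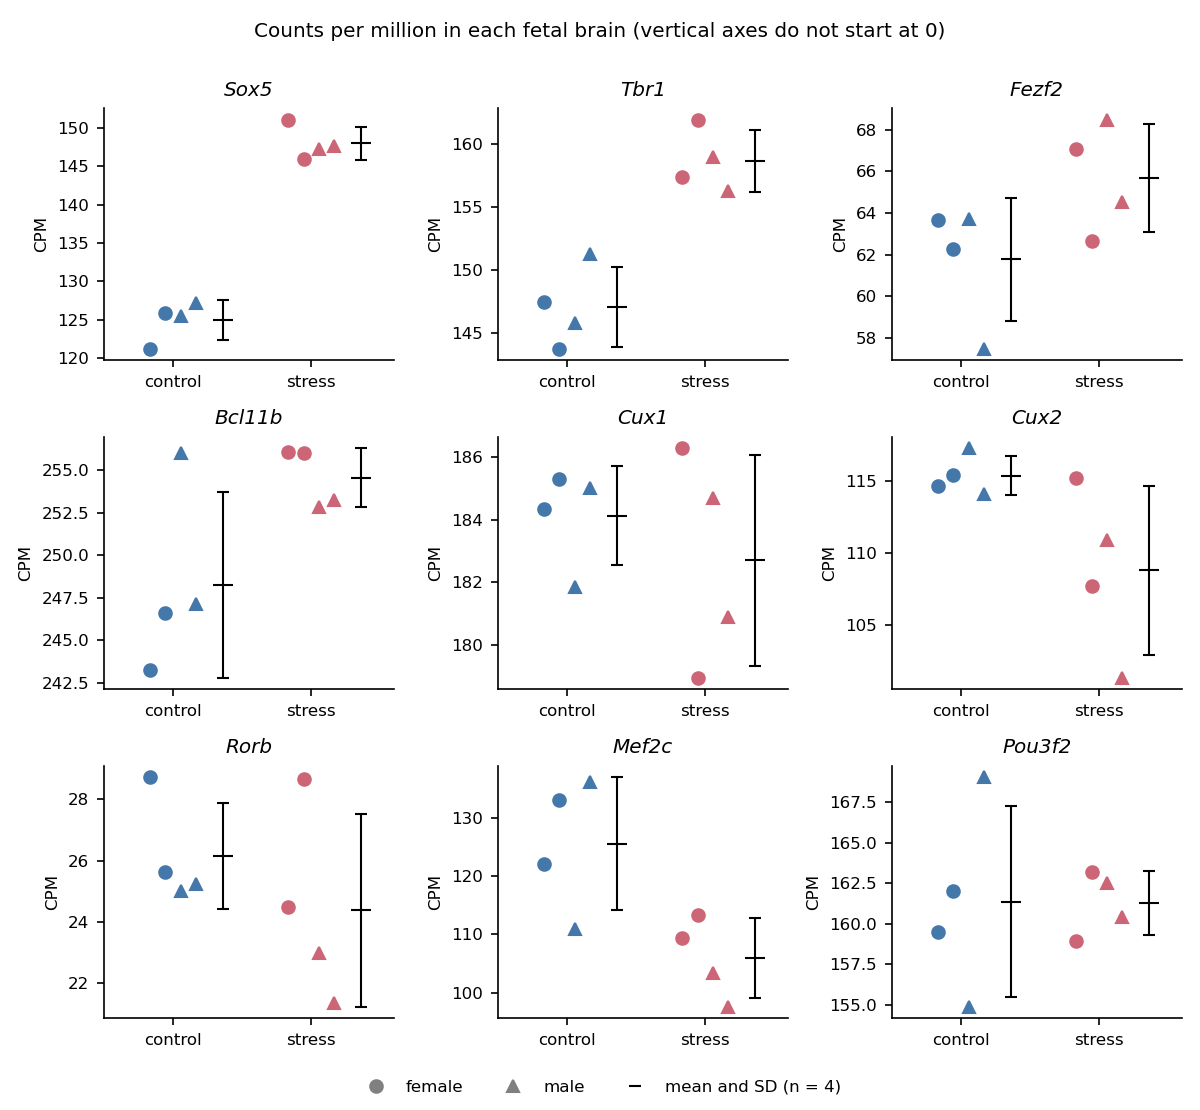
CPM (counts scaled to a common library size, with TMM factors) of each of the 9 genes in each brain, with control brains in blue, stressed brains in red, females as circles and males as triangles. Black marks give the mean and SD of 4 brains. The stressed brains lie above all control brains for Sox5 and Tbr1, and the groups overlap for the other 7 genes.

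The libraries were of similar depth, between 25320109 and 29105710 counts, and mitochondrial genes took between 2.1% and 2.31% of the counts. Levels are given as CPM, counts scaled to a common library size after TMM, edgeR's method of equalizing libraries. The minimum count set in edgeR removed none of the 9 genes, which had between 618 counts (Rorb, stress M29) and 7331 counts (Bcl11b, stress M29) in a library. Across all genes the common biological coefficient of variation among brains was 3.14%. Markers of the labelled tissue were present in every library: the summed level of 13 pan-neuronal genes was between 9115 and 9536 CPM, and that of 11 telencephalic regional genes between 1572 and 1752 CPM. The study's list of libraries is ambiguous on whether each library held the entire brain.

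Sox5 lies on chromosome 6 of mm10, minus strand, from 143828425 to 144781977, with 25 exon blocks. In the controls it was at 121 CPM in F36, 126 in F37, 126 in M30 and 127 in M31. In the stressed brains it was at 151 CPM in F34, 146 in F35, 147 in M28 and 148 in M29. Every stressed brain therefore lay above every control brain. The means were 125 ± 2.59 and 148 ± 2.18 CPM (SD, n = 4 each), a log2 fold change of 0.24 (SE 0.03, 95% confidence interval 0.19 to 0.30). The adjusted p by edgeR's quasi-likelihood test was 3.66e-06. With each brain left out in turn the log2 fold change was between 0.23 and 0.25 and the gene passed in 8 of 8 fits. Exons of the opposite-strand gene Sox5os1 cover 9.25% of the exon bases of Sox5. The counting options that the study lists include none for strand and none for reads shared between genes.

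Tbr1 lies on chromosome 2, plus strand, from 61802930 to 61814114. Its control levels were 147 CPM in F36, 144 in F37, 146 in M30 and 151 in M31, against 157 in F34, 162 in F35, 159 in M28 and 156 in M29. The groups did not overlap, but the step between the highest control and the lowest stressed brain was small. The means were 147 ± 3.19 and 159 ± 2.46 CPM (SD, n = 4 each), a log2 fold change of 0.11 (SE 0.03, 95% confidence interval 0.05 to 0.17), with an adjusted p of 0.00919 by the quasi-likelihood test. The rise was called in 7 of 8 fits that left out 1 brain. Without control F37, the lowest control, it was 0.10 with an adjusted p of 0.0572. It also depended on the scaling of the libraries. When they were scaled to the summed counts of 12 telencephalic genes, a list whose reported members were themselves higher in the stressed brains, the log2 fold change of Tbr1 was 0.05 and its adjusted p 0.323.

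Mef2c lies on chromosome 13, plus strand, from 83504034 to 83667080. Its control levels were 122 CPM in F36, 133 in F37, 111 in M30 and 136 in M31, and its stressed levels 109 in F34, 113 in F35, 103 in M28 and 97.6 in M29. Control M30 lay below stress F35, so the groups overlapped, and the controls were more spread than for any other of the 9 genes. The means were 126 ± 11.5 and 106 ± 6.87 CPM (SD, n = 4 each), a log2 fold change of -0.25 (SE 0.04, 95% confidence interval -0.34 to -0.16), with an adjusted p of 0.000434 by the quasi-likelihood test. The fall was called in 8 of 8 fits with 1 brain left out, at log2 fold changes between -0.30 and -0.18. Genes of blood vessels, where Mef2c is also used, were lower in the same brains. The summed level of 8 endothelial genes was 210 to 232 CPM in the controls and 190 to 201 CPM in the stressed brains. Of the 7 tested, 4 fell and 0 rose. The receptors Flt1 and Kdr changed by -0.41 and -0.29 on the log2 scale, while Cldn5 (-0.13) and Tek (-0.23) lost their calls when any 1 of 5 and of 6 brains was left out. Both were also not called by DESeq2 (adjusted p 0.0807 and 0.106), with pan-neuronal scaling (0.105 and 0.0664) and with no sex term (0.0556 and 0.0504). The summed level of 8 microglial genes, of which 0 were called, was 34.9 to 37.8 CPM against 32.8 to 37.2 CPM. Whether the vessel cells had a part in the Mef2c values was not tested.

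The share of all tested genes whose stressed brains all lay above the controls was 8.20%, and the share all below was 8.22%. Of the 9 genes, 2 lay above and 0 below. DESeq2's Wald test on the same counts called 4.19% of genes higher and 5.10% lower, and among the 9 it called the same 3 genes in the same directions. At an unadjusted p under 0.05 by edgeR there were 5 of the 9, where 26.9% of all genes tested passed. The 5 were the 3 named above with Fezf2 and Cux2.

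The sequences before the start sites of the called genes are given from RefSeq (GRCm38.p6, the same build as mm10), as 250 bases ending at the base before the start. A RefSeq entry was matched for 9 of the 9 genes, with 13 starts in all. They were read because Sox5, Tbr1 and Mef2c are the genes that moved, and they were searched on both strands for 6 short words: the SOX word AACAAT, the T-box word AGGTGT, the POU octamer ATGCAAAT, the CUX word ATCGAT, the ROR half-site AGGTCA and the glucocorticoid receptor half-site AGAACA. Capitals mark the matched words on either strand, and no match overlapped another.
Sox5, chr6:143947107-143947356, minus strand: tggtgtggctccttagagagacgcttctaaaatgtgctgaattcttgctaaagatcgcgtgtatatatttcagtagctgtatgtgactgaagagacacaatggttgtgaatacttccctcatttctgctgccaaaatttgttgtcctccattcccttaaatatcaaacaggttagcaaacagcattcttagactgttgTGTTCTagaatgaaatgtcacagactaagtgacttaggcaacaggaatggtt
Mef2c, start 1, chr13:83503784-83504033, plus strand: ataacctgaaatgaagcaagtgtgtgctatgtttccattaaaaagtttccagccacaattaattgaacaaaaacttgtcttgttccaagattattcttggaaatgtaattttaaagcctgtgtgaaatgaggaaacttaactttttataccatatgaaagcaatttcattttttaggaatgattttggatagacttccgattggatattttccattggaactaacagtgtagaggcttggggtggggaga
Mef2c, start 3, chr13:83573357-83573606, plus strand: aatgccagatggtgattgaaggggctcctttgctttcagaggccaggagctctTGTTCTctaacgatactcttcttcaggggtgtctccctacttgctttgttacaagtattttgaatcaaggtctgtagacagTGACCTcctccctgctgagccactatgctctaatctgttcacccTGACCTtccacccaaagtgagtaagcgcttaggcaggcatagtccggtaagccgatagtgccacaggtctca
Tbr1, the SOX word with 12 bases on either side, plus strand: accccccaagccAACAATaaaatcatcccc

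The 3 longer windows lie outside annotated exons. The Sox5 start is inside the gene as the count tables define it, and Mef2c start 1 is at the edge of its gene. The Sox5 window held 1 word, the glucocorticoid receptor half-site at position -52, where -1 is the base before the start. Of 32851 starts of all genes, 16.1% hold that word. The window of Mef2c start 1 held none of the 6 words. That of start 3 held the same half-site at position -197 and the ROR half-site at -116 and -72. The ROR half-site is found at 14.0% of all starts. Tbr1 carried the SOX word at position -96, as do 9.42% of all starts, in a window that the annotation places in an exon of a longer Tbr1 transcript. Mef2c start 2 carried the T-box word (11.8% of all starts) and the ROR half-site, Cux2 start 2 the CUX word (0.728%), and the POU octamer (1.6%) was found at 0 of the 13 starts. By base composition the windows of the called genes lay below the median of all starts in G and C, which was 52.4%. They were at 39.6% for Sox5, 45.2% for Tbr1 and 33.6% for start 1 of Mef2c. The windows of the uncalled Bcl11b (44.8%) and of start 2 of Rorb (39.2%) also lay below it. Other windows of uncalled genes lay above it, and the 13 starts ranged from 33.6% to 80%. A matched word is a description of the letters only.

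Of the deep-layer factors, Fezf2 and Bcl11b were not called. Fezf2, a zinc finger factor that specifies neurons projecting to the brainstem and spinal cord, was at 63.7, 62.3, 63.7 and 57.5 CPM in control F36, F37, M30 and M31 and at 67.1, 62.7, 68.5 and 64.5 CPM in stress F34, F35, M28 and M29. Only stress F35 lay within the range of the controls. The log2 fold change was 0.09 (SE 0.04, 95% confidence interval 0.01 to 0.17), with an adjusted p of 0.129 by the quasi-likelihood test. Bcl11b, the zinc finger factor that acts downstream of Fezf2 in the same neurons and is also strong in the striatum, was at 243, 247, 256 and 247 CPM in the controls and at 256, 256, 253 and 253 CPM in the stressed brains, in the same order of animals. Control M30 reached the level of the 2 stressed females, and the difference was 0.04 on the log2 scale (95% confidence interval -0.02 to 0.09, adjusted p 0.417 by the quasi-likelihood test).

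The upper-layer factors were also not called. Cux2, a homeobox factor of upper-layer neurons and of the progenitors that make them, was at 115, 115, 117 and 114 CPM in control F36, F37, M30 and M31 and at 115, 108, 111 and 101 CPM in stress F34, F35, M28 and M29. The 4 controls were close together, and 3 of the 4 stressed brains lay below them, with stress M29 the lowest. The log2 fold change was -0.09 (SE 0.03, 95% confidence interval -0.15 to -0.02), with an adjusted p of 0.0898 by the quasi-likelihood test. Of 8 fits that left out 1 brain, 1 called it. That was the fit without stress F34, the one stressed brain at the control level, at -0.11 with an adjusted p of 0.0311. Without stress M29 it was -0.05, with an adjusted p of 0.385 by the same test. Its relative Cux1 ranged from 182 to 185 CPM in the controls and from 179 to 186 CPM in the stressed brains, with a log2 fold change of -0.01 (95% confidence interval -0.07 to 0.04).

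Rorb, the nuclear receptor of the layer that receives thalamic input, was the least abundant of the 9 genes. It was at 28.7, 25.6, 25 and 25.2 CPM in control F36, F37, M30 and M31 and at 24.5, 28.7, 23.0 and 21.3 CPM in stress F34, F35, M28 and M29. Each group held 1 female well above its other brains, so the range of the stressed brains covered nearly all of that of the controls. The log2 fold change was -0.11 (SE 0.05, 95% confidence interval -0.22 to 0.01), with an adjusted p of 0.217 by the quasi-likelihood test. It was called in 1 of 8 fits that left out 1 brain, the one without stress F35, at -0.17 with an adjusted p of 0.0315. Without stress M29 it was -0.07, with an adjusted p of 0.518 by the same test. Pou3f2 (Brn2), a POU factor of late progenitors and upper-layer neurons, ranged from 155 to 169 CPM in the controls and from 159 to 163 CPM in the stressed brains. Its means, 161 ± 5.90 and 161 ± 1.95 CPM (SD, n = 4 each), were alike, and the 95% confidence interval of its log2 fold change was -0.06 to 0.06.

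**Figure D2:**
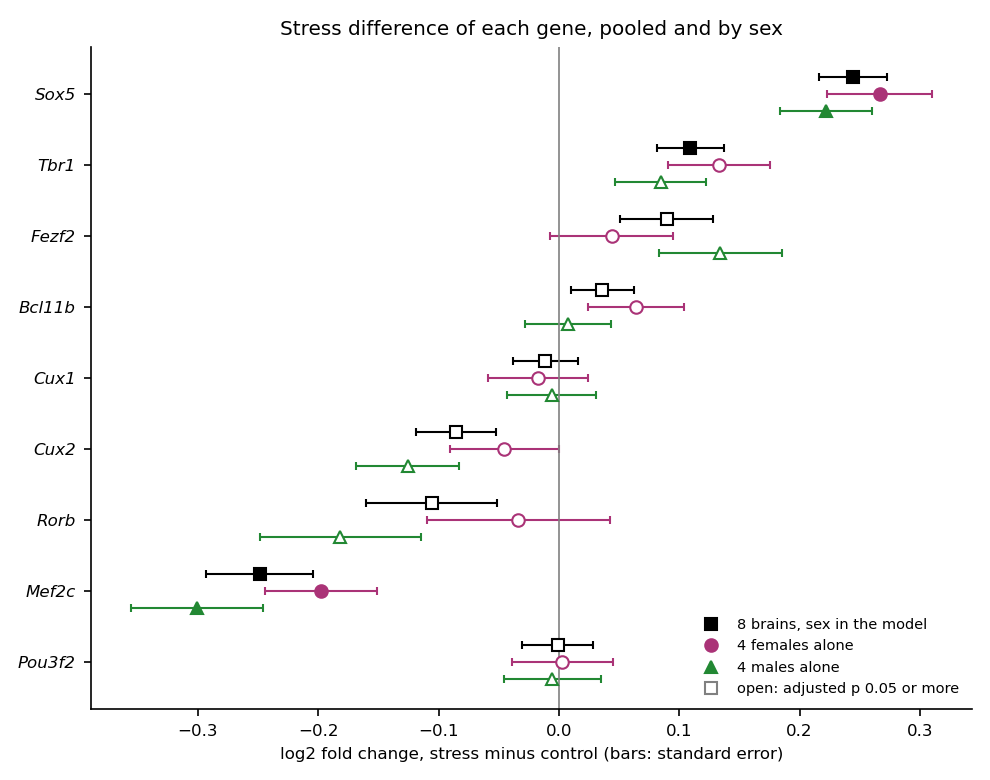
Log2 fold change of each gene, stress minus control, in all 8 brains with sex in the model (black squares), in the 4 females alone (purple circles) and in the 4 males alone (green triangles), with bars of 1 standard error and filled symbols for an adjusted p under 0.05. Sox5 and Mef2c are filled in all 3 fits, and Tbr1 only in the fit of all 8 brains.

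Within each sex, 2 stressed brains were set against 2 controls. In the females alone 1.64% of all genes were called higher and 2.27% lower, and in the males alone 3.68% and 4.81%. Sox5 rose in both, by 0.27 on the log2 scale in females and 0.22 in males (adjusted p 0.000361 and 0.000229, edgeR's quasi-likelihood test). Mef2c fell in both, with log2 fold changes of -0.20 in females and -0.30 in males (adjusted p 0.0121 and 0.000516). Tbr1 passed in neither, at 0.13 in females and 0.08 in males (adjusted p 0.0698 and 0.175). In males Fezf2, Cux2 and Rorb had values of 0.13, -0.13 and -0.18, and in females of 0.04, -0.05 and -0.03, none of them called. The difference between the sexes was tested as an interaction. It was called for 0 of the 9 genes and for 0.00560% of all genes, which is 1 gene, Stambp, named here after its values were seen. None of the 9 had an unadjusted p under 0.05, where 1128 of all genes did by edgeR. DESeq2 called 2 genes for it and 0 of the 9. The interaction estimates ran from -0.09 (Fezf2, 95% confidence interval -0.25 to 0.06) to 0.15 (Rorb, -0.07 to 0.37).

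Females and males themselves differed in 0.0896% of all genes (16 genes) and in 0 of the 9. At an unadjusted p under 0.05, where 5.91% of all genes passed, 2 of the 9 were found. Rorb was at 26.9 ± 2.16 CPM in females and 23.6 ± 1.83 CPM in males (SD, n = 4 each), a log2 difference of 0.18 with an adjusted p of 0.565 by the quasi-likelihood test. Mef2c was at 119 ± 10.5 CPM in females and 112 ± 17.0 CPM in males, a difference of 0.09 with an adjusted p of 0.841. Neither difference held after adjustment. Each sex pooled 2 control and 2 stressed brains, so these SDs also hold the difference between stress and control.

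To compare the genes with each other, levels were divided by exon length. In the controls the order of CPM per kilobase was Bcl11b (30.6), Pou3f2 (28.9), Tbr1 (26.8), Fezf2 (20.3), Cux2 (11.4), Cux1 (9.20), Sox5 (8.69), Mef2c (7.99) and Rorb (2.36). Bcl11b and Pou3f2 overlapped in range, as did Sox5 and Mef2c, and the other neighbours in this order did not. In the stressed brains Tbr1 (28.9 CPM per kilobase) stood level with Pou3f2 (28.9) and Sox5 (10.3) stood above Cux1 (9.12), while Mef2c was at 6.74. Among all tested genes the level per kilobase of Bcl11b was at percentile 91.1 and that of Rorb at percentile 38.7. The order describes reads over all annotated exons of a gene and takes no account of which transcript was made.

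**Figure D3:**
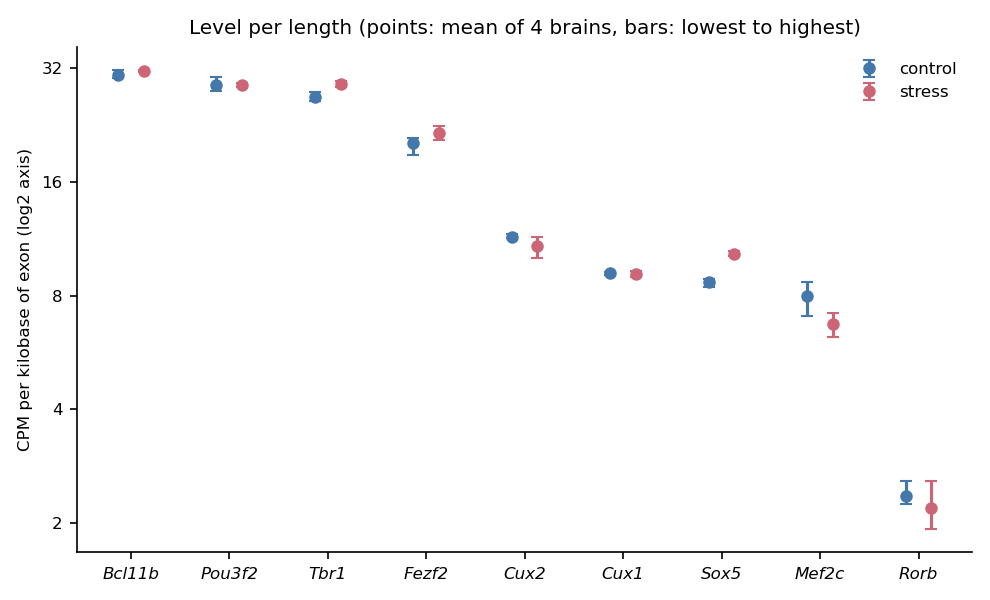
Level of each gene as CPM per kilobase of exon, on a log2 axis, for control (blue) and stressed (red) brains, with points at the mean of 4 brains and bars from the lowest to the highest. Bcl11b, Pou3f2 and Tbr1 sit near 30 CPM per kilobase, Rorb near 2, and the red and blue bars of Sox5 and Tbr1 do not overlap.

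Ratios between genes within a brain do not depend on how the libraries are scaled. Such ratios are used because several of these factors oppose each other, as Tbr1 represses Fezf2. The log2 ratio of Bcl11b to Tbr1 was 0.72, 0.78, 0.81 and 0.71 in control F36, F37, M30 and M31 and 0.70, 0.66, 0.67 and 0.70 in stress F34, F35, M28 and M29. All stressed brains lay below all controls, by 0.07 on average. The step was small, from 0.708 in control M31 to 0.701 in stress F34. Tbr1 was itself called higher (0.11) and Bcl11b was not (0.04), so this ratio is not separate from the Tbr1 call. The share of other gene pairs that did not overlap was not counted. The ratio of Fezf2 to Tbr1 overlapped between the groups, with means of -1.25 ± 0.10 and -1.27 ± 0.07 (SD, n = 4 each), as did that of Cux2 to Cux1 (-0.67 ± 0.03 and -0.75 ± 0.06). The ratio of Pou3f2 to its close paralog Pou3f3 also overlapped (-0.87 ± 0.07 and -0.88 ± 0.03). The ratio of Sox5 to Mef2c, chosen after the values were seen, lay between -0.10 and 0.18 in the controls and between 0.37 and 0.60 in the stressed brains.

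Other genes used as markers of the same neurons were then read from lists. Of 16 further deep-layer genes, 1 rose and 3 fell, with a median log2 fold change of -0.03. Fat3, a protocadherin, rose by 0.15, and was at 0.07 and not called with a scaling to 11 of the 12 telencephalic genes that was chosen after the values were known. Bhlhe22, a factor needed for cortical axon tracts, and Pcp4, a calmodulin-binding protein of subcerebral neurons, had changes of -0.23 and -0.28 (adjusted p 9.79e-05 and 0.000739 by the quasi-likelihood test). For Pcp4, 23.7% of its exon bases are overlapped. Crym, a thyroid hormone-binding protein, was at -0.21 and lost its call when any 1 of 5 of the 8 brains was left out, by DESeq2 (adjusted p 0.0872) and with pan-neuronal scaling (0.0852). Tle4, a corepressor of corticothalamic neurons, was at 118 to 124 CPM in the controls and 116 to 119 CPM in the stressed brains, and Foxp2, which marks the same cells, at 117 to 126 and 125 to 134 CPM; neither was called. The summed level of the 16 genes was 2155 to 2213 CPM and 2189 to 2225 CPM and overlapped between the groups.

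Of 12 further upper-layer and callosal genes, 2 rose and 2 fell, with a median of -0.02. Epha3, an ephrin receptor, and Lhx2, a homeobox factor of cortical progenitors and upper-layer neurons, rose by 0.18 and 0.14. With telencephalic scaling Lhx2 (0.08, adjusted p 0.0874) was no longer called. Dok5 (-0.25), an adaptor of receptor signaling, and Inhba (-0.43), the activin subunit, fell. Inhba lost its call without control M31 (-0.32, adjusted p 0.0515 by the quasi-likelihood test). The summed level was 1199 to 1213 CPM in the controls and 1211 to 1236 CPM in the stressed brains. Of 9 genes listed as pan-cortical glutamatergic, 2 rose and 3 fell, with a median of 0.01. Of these, Bhlhe22 is also on the deep-layer list and Emx1 on lists given below. Emx1, the homeobox factor of the dorsal telencephalon, rose by 0.25, and the adhesion molecule Cntn2 by 0.11, the latter lost without stress F34 (0.07, adjusted p 0.0793 by the quasi-likelihood test) and with telencephalic scaling (0.05, adjusted p 0.306). Bhlhe22, Mpped1 (-0.13) and Hivep2 (-0.13, outside the naming rule and picked with its values known) fell, Mpped1 with its call lost when any 1 of 4 of the brains was left out and by DESeq2. Neurod2 and Neurod1, the neuronal basic helix-loop-helix factors, were at 0.01 and -0.01. In each of these 3 lists the share called higher and the share called lower can be read against the 6.49% and 7.27% over all genes.

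**Figure D4:**
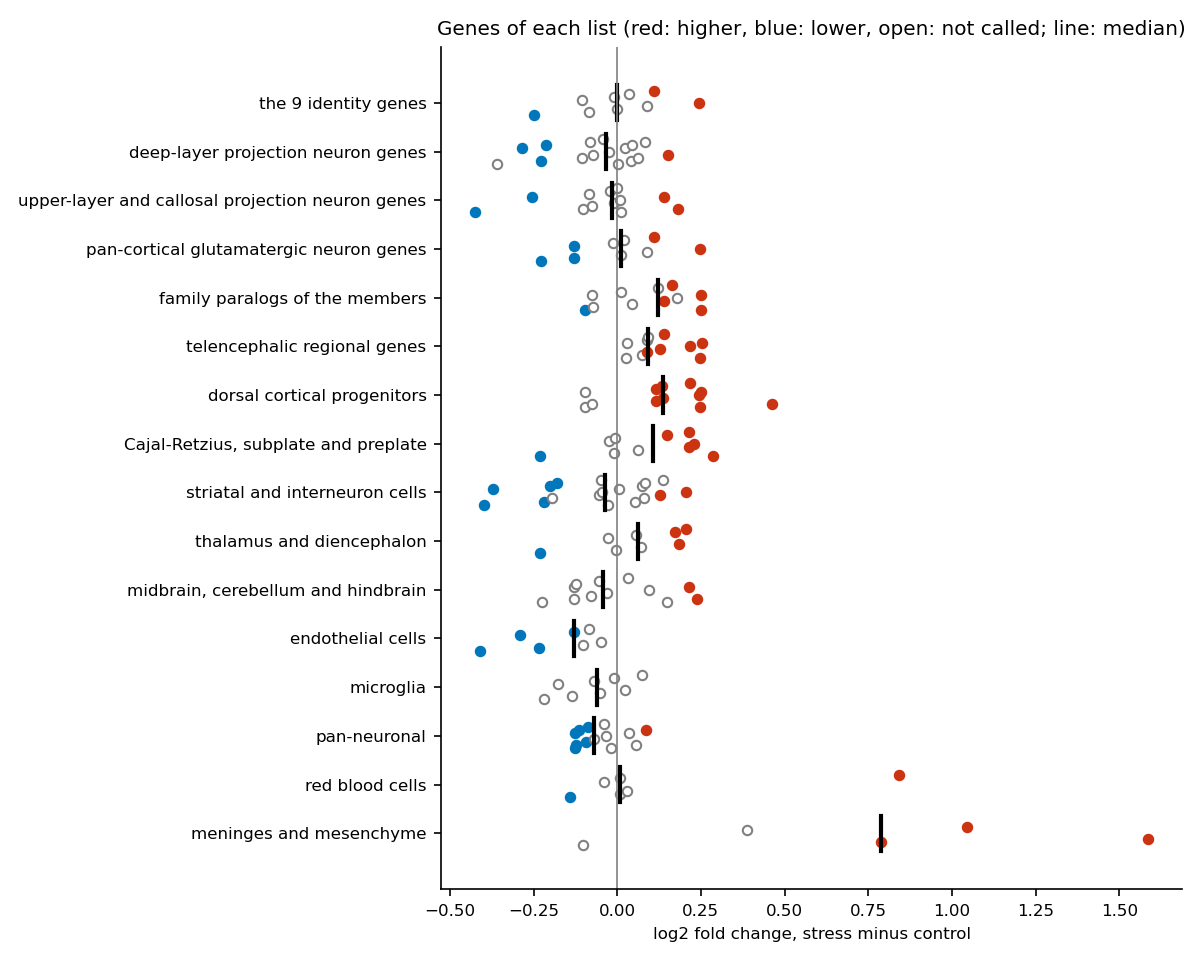
Log2 fold change, stress minus control, of each tested gene of the 9 identity genes and of 15 gene lists, with red for genes called higher, blue for genes called lower, open circles for genes not called and a black line at the median of each list. The projection neuron lists have medians near 0 with calls on both sides. In the list named dorsal cortical progenitors 9 of 12 genes are red, and the endothelial list has 4 blue and 0 red.

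The 9 factors have 13 close family members in these lists, of which 11 were tested. Of these, 4 rose and 1 fell, with a median of 0.12. The SoxD relatives of Sox5 both rose: Sox13 from 15.7 ± 0.92 to 18.7 ± 1.23 CPM and Sox6 from 71.3 ± 2.51 to 78.5 ± 2.98 CPM (SD, n = 4 each), changes of 0.25 and 0.14 on the log2 scale. Sox6, a factor of migrating interneurons and of dorsal progenitors, lost its call without stress F34 (0.11, adjusted p 0.0513 by the quasi-likelihood test). Eomes (Tbr2), the T-box relative of Tbr1 that is on in intermediate progenitors just before Tbr1, rose from 91.1 ± 1.22 to 108 ± 4.70 CPM, by 0.25 (adjusted p 8.40e-06). Pou3f4 rose by 0.16, while Pou3f1 and Pou3f3, its relatives and those of Pou3f2, were at -0.08 and 0.01 and not called. Of the relatives of Mef2c, Mef2a fell by 0.10 (adjusted p 0.0289), a call lost when any 1 of 6 of the 8 brains was left out, and Mef2d was at -0.07 and not called. Bcl11a, the relative of Bcl11b, was at 0.04, Rora at 0.12 and Fezf1 at 0.18, none of them called. With telencephalic scaling Sox6 (0.07) and Pou3f4 (0.10) were no longer called and Pou3f1 (-0.14) and Mef2d (-0.14) were called lower, and with pan-neuronal scaling Mef2a (-0.07) was not. Tbx21 and Mef2b were below the filter, at most 0.52 and 0.36 CPM in a brain.

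Genes used as markers of other cell types of the brain changed as follows in the same libraries. Some genes, such as Emx1 and Calb2, stand on several of these lists. Of 12 genes listed for dorsal cortical progenitors, 9 rose and 0 fell (median 0.14), among them Neurog2, the neurogenic factor of the dorsal telencephalon (0.24), Emx2 (0.22) and Eomes. Sox2 (0.12), Vim (0.12) and Nes (0.14), picked with their values known, were also among the 9 and are not confined to dorsal progenitors. Hes1 (-0.08), Hes5 (-0.10) and Hopx (-0.10) of the same list were lower and not called. The summed level of the 12 genes was 1015 to 1101 CPM in the controls and 1086 to 1200 CPM in the stressed brains, which overlapped. Of 10 tested genes of Cajal-Retzius cells, subplate and preplate, the early-born cells in which Tbr1 is also on, 5 rose and 1 fell (median 0.11). Reln and Trp73, which define Cajal-Retzius cells, were not called: Reln was at 270 ± 9.70 CPM in the controls and 269 ± 2.83 CPM in the stressed brains, and Trp73 at 12.7 ± 0.81 and 13.2 ± 0.90 CPM (SD, n = 4 each). The transcription factors Ebf2 and Ebf3 rose by 0.29 and 0.23, and Calb2 fell by 0.23. The summed level of 11 such genes was 751 to 773 CPM in the controls and 783 to 836 CPM in the stressed brains, which did not overlap. Ebf3 carried the largest part of the difference between these sums, from 151 ± 7.47 to 177 ± 11.5 CPM (SD, n = 4 each). Of 11 telencephalic regional genes, 6 rose and 0 fell (median 0.09), and their sums of 1572 to 1643 and 1667 to 1752 CPM did not overlap either. Whether these cells had a part in the values of Sox5 and Tbr1 was not tested.

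Of 18 genes of striatal neurons and interneurons, where Bcl11b and Mef2c are also on, 2 rose and 5 fell (median -0.04), with sums of 1010 to 1034 and 1029 to 1040 CPM. The 2 that rose were the transcription factors Ebf1, by 0.21 (adjusted p 0.00198 by the quasi-likelihood test), and Dlx2, by 0.13 (adjusted p 0.0333, outside the naming rule and picked with its values known). Penk and Drd2, of striatal neurons of the indirect pathway, had changes of -0.40 and -0.37, and Sst, an interneuron peptide, of -0.18. Of the Penk exon bases 14.3% are shared with another gene. Of 13 pan-neuronal genes 1 rose and 6 fell (median -0.07), among them the growth cone protein Gap43 (-0.12) and the nuclear protein Rbfox3 (-0.13), the latter not called with pan-neuronal scaling (-0.10, adjusted p 0.0631 by the quasi-likelihood test) nor in either sex alone. The gene that rose was the neurofilament-related Ina, by 0.09 (adjusted p 0.0232), a call lost when any 1 of 4 brains was left out, with telencephalic scaling (0.02) and with no sex term. Of 8 thalamic and diencephalic genes 3 rose and 1 fell (median 0.06), and of 12 genes of midbrain, cerebellum and hindbrain 2 rose and 0 fell (median -0.04), with sums of 231 to 248 and 249 to 281 CPM that did not overlap. The 2 were Tfap2b, which went from 143 ± 7.70 to 165 ± 7.78 CPM (SD, n = 4 each) and carried most of the difference between the sums, and Pax5 (0.24), whose call was lost without stress M29 (0.19, adjusted p 0.0586 by the quasi-likelihood test). Of the 12, 5 had a log2 fold change above 0. Hoxa2 (-0.13), Hoxb2 (-0.22), Hoxa3 (-0.13) and Hoxb3 (-0.06), picked with their values known, were lower and not called. Hoxa3 was spread from 4.58 to 7.46 CPM in the controls and from 2.68 to 7.66 CPM in the stressed brains. Of 6 red blood cell genes 1 rose and 1 fell (median 0.01). The embryonic globin Hbb-y rose by 0.84 (adjusted p 0.00012 by the quasi-likelihood test), and Hbb-bs (-0.14) fell. Hbb-y was at 2.14 to 3.97 CPM in the controls and 5.19 to 6.98 CPM in the stressed brains. Of 5 tested meningeal and mesenchymal genes 3 rose and 0 fell (median 0.79). The 3 were the collagen genes Col1a1, Col1a2 and Col3a1, with 0 of them called by DESeq2. The others tested, Dcn (0.39) and Foxc1 (-0.10), picked with their values known, were not called. The meningeal sum was 16 to 29.1 CPM in the controls and 20.7 to 63.3 CPM in the stressed brains, the highest in stress M28. In the fit without stress M28, 2 of the 9 genes were called higher and 1 lower. The part of these cells in the values of the 9 genes was not tested, by that fit or otherwise.

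The genes closest to each of the 9 in profile were found by the root mean square difference of log2 CPM, centred on each gene's own mean, over the 8 brains. Hells and Prr11 were nearest to Sox5 (0.024 and 0.027), Qser1 and Gm26809 to Tbr1 (0.014 and 0.021), and Gucy1a1 and Slc7a14 to Mef2c (0.035 and 0.039). For the genes that did not pass, the nearest were Cep68 and Txlna for Bcl11b, Llgl1 and Zcchc3 for Fezf2, Fads2 and Dag1 for Cux1, Tbkbp1 and Lrp1b for Cux2, Ssh3 and Pcdhb18 for Rorb, and Ppp2r5e and Dynlt3 for Pou3f2, at differences between 0.011 and 0.042. With 8 brains from 2 litters, such nearness describes these libraries only.

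**Figure D5:**
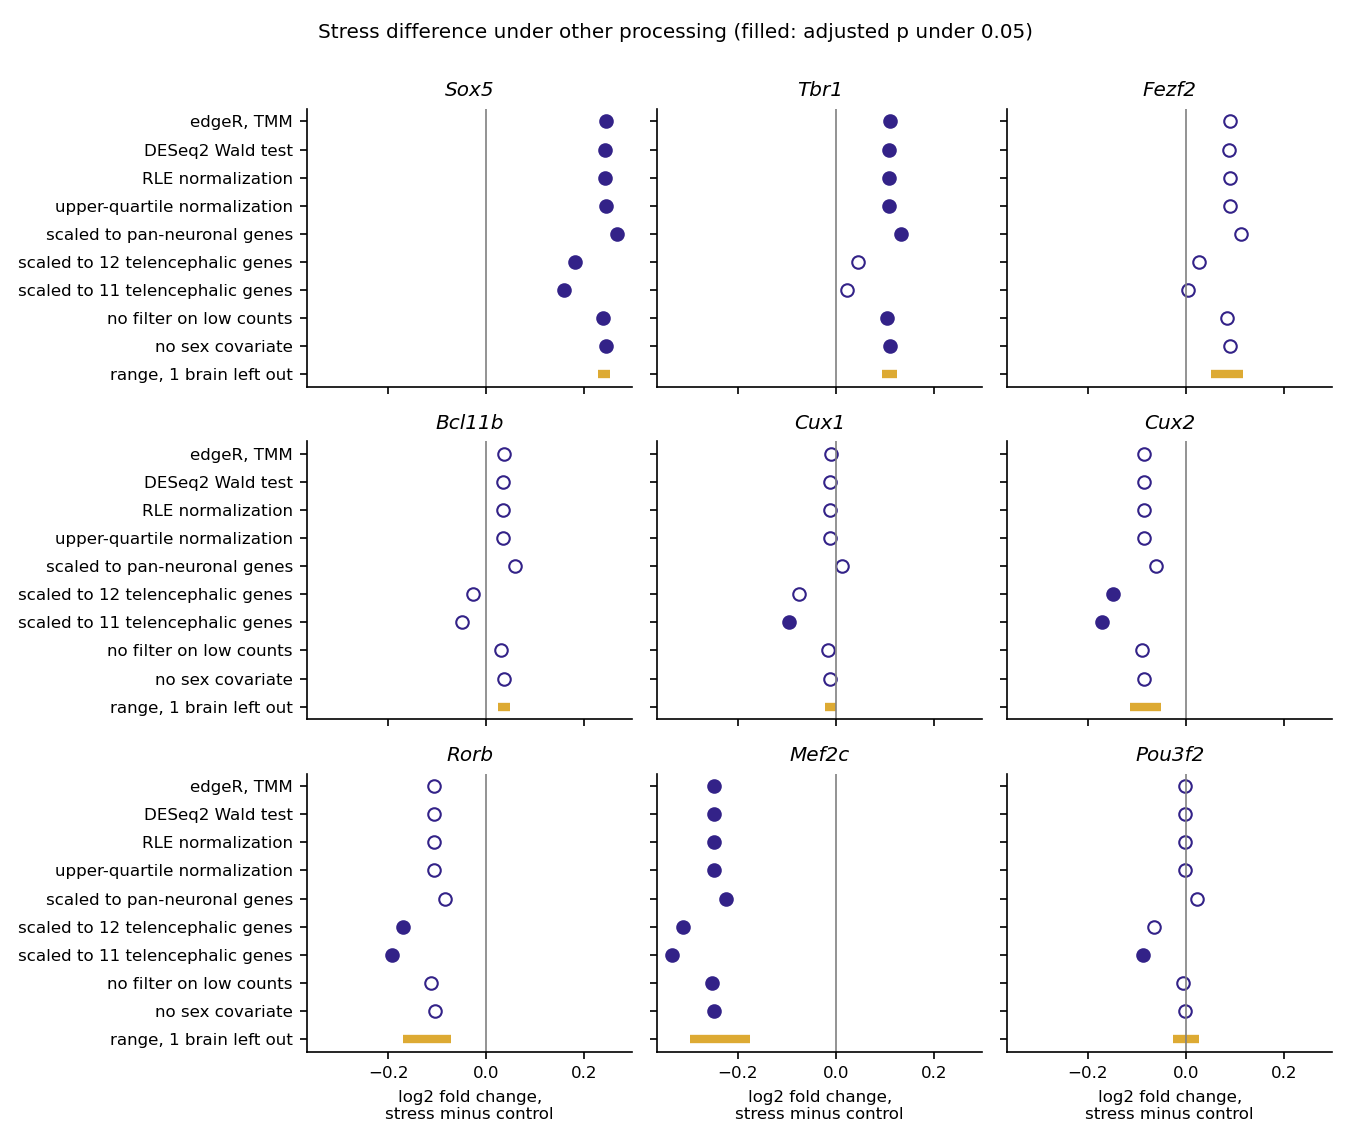
Log2 fold change of each of the 9 genes, stress minus control, under edgeR with TMM and under 8 other ways of processing, filled where the adjusted p is under 0.05, with an orange bar for the range when 1 brain is left out. Sox5 and Mef2c are filled in every row, Tbr1 is open with scaling to 12 or 11 telencephalic genes, Cux2 and Rorb are filled only with these scalings, and Cux1 and Pou3f2 only with that to 11 genes.

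The scaling of the libraries set which further genes were called. With TMM, 47.2% of all called genes were higher in the stressed brains. Scaled to the pan-neuronal genes this share was 64.8% and scaled to the 12 telencephalic genes it was 12.1%, with all genes shifted by 0.02 and -0.06 on the log2 scale. Under the telencephalic scaling Cux2 (-0.15) and Rorb (-0.17, adjusted p 0.0322 by the quasi-likelihood test) were called lower beside Mef2c (-0.31), and Sox5 alone remained higher (0.18). Cux1 (-0.07, adjusted p 0.0646), Pou3f2 (-0.06), Fezf2 (0.03) and Bcl11b (-0.03) were not called. A scaling to 11 of these 12 genes, chosen after the values were known, shifted all genes by -0.09, with 7.56% of the called genes higher. There Cux1 (-0.10) and Pou3f2 (-0.09, adjusted p 0.0490) were called lower too. Sox5 rose and Mef2c fell under each of these scalings.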

How the data were processed

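RNA-seq counts of 8 fetal brains were used, grouped by the condition in the sample labels. The authors trimmed reads with Trim Galore, used TopHat2 2.1.1 for alignment (mm10) and featureCounts 1.6.3 for counting over GENCODE exons, with no strand option given. The deposited values are raw counts per gene. Depth was between 25320109 and 29105710 counts per library.

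Genes were kept by filterByExpr (minimum count 10, by group), normalized by TMM and tested in R 4.3.3 with edgeR 4.0.16 (glmQLFit and glmQLFTest, sex and condition in the model, Benjamini-Hochberg adjustment over 17865 genes, called under 0.05). The study's model also holds batch, which is not given for these libraries. The interaction of sex and stress was added for its own test. DESeq2 1.42.0 was an alternative, beside other scalings, no filter, no sex term, each sex alone and each brain left out. The fits were tested on simulated data. Log2 CPM used a prior count of 2, and level per kilobase the exon lengths in the count tables.

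The 9 genes, the lists and the tests were chosen with earlier results of these data known. Genes named from a list are up to 4 with the smallest p among those called (up to 2 of highest CPM where none is), all family members, and 2 nearest profiles per gene. Gene symbols were matched for 54723 of 54752 identifiers. Some genes of the lists are not reported here and were left out of the list counts and sums. The telencephalic scaling used its 12 genes as listed, and a scaling to the 11 reported was added after the values were known. No replicate number is shared between the groups as a pairing.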

Additional observations from a re-analysis of the deposited data

Results flagged for a closer look

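In groups of 4 brains, a brain was marked where its gap to the nearest of the others exceeded Dixon's critical share of the group's range. This was so for 9 of 158 groups examined, and chance gives about 1 in 20. Among the 9 identity genes it was 1 of 18 groups: Rorb in control F36, at 28.7 CPM against 25 to 25.6 in the other controls (share 0.8295).

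Among the genes of the lists, stress M29 stood below its group for Rbfox3 (73.4 against 77.2 to 77.4 CPM, share 0.944). Stress F34 stood below its group for Epha3 (98.5 against 105.1 to 105.4 CPM, 0.959) and Pou3f4 (33.0 against 34 to 34.1 CPM, 0.924). Stress M28 was low for Sox13 (16.9 against 19.2 to 19.4 CPM, 0.907). Control M30 was low for Calb2 (43.8 against 50.4 to 51.4 CPM, 0.870) and for the summed Cajal-Retzius, subplate and preplate list (751 against 772 to 773 CPM, 0.926). Control F36 was high for the collagen gene Col3a1 (8.63 against 4.72 to 4.82 CPM, 0.974). Control F37 was low for the summed upper-layer and callosal list (1199 against 1211 to 1213 CPM, 0.840).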

How the results depend on the processing

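DESeq2's Wald test, median-of-ratios and upper-quartile scaling, no filter and no sex term each left 2 of the 9 genes higher and 1 lower. Higher were 1 with scaling to 12 or to 11 telencephalic genes (the latter chosen after seeing the data), 1 in females alone, 1 in males alone and 1 to 2 with 1 brain left out. Lower were 3 with 12 and 5 with 11 telencephalic genes and 1 to 2 with 1 brain left out. Over all genes, 1160 were higher, but 748 by DESeq2, 476 with 12 and 390 with 11 telencephalic genes, 295 in females, 664 in males and 736 to 1057 with 1 brain left out. In turn 1298 were lower, but 793 with pan-neuronal scaling, 3447 with 12 and 4772 with 11 telencephalic genes, 407 in females and 854 to 1308 with 1 brain left out; both counts were lowest without stress M29. With no filter, 64 genes differed by sex in place of 16 and 37 by interaction in place of 1, and DESeq2 called 2 for the interaction. Signs turned only for values that were not called: with 12 and with 11 telencephalic genes Bcl11b (-0.0272 and -0.0493), Bcl11a (-0.0199 and -0.0420) and Pou3f3 (-0.0519 and -0.0739), with 11 also Csf1r (-0.0119), with pan-neuronal scaling Cux1 (0.0125), Pou3f2 (0.0225) and Cx3cr1 (0.0140), in females Pou3f2 (0.00275) and Csf1r (-0.0150), in males Pou3f3 (-0.00755) and Cx3cr1 (0.0316), and with 1 brain left out Pou3f2 (-0.0271 to 0.0261), Csf1r (-0.00851 to 0.153) and Cx3cr1 (-0.0685 to 0.0335). The cause of these changes was not tested. Of the values of the other named genes under these settings, 118 lost their call and 5 gained one. Beside those given above, leaving out 1 brain ended the call of Lef1 (any of 5 brains), Syt1 and Col1a2 (3), Hbb-bs (2), and Col1a1 (1). No paired analysis was possible because the groups share no replicate number from the labels. Both groups are 1 litter each, so these settings say nothing of other litters.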
